A study of Caenorhabditis elegans with 2 samples.

Results

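Small nucleolar RNA (snoRNA) genes that lie wholly inside a protein-coding gene of the same strand were examined for peaks of the protein PEB-1 in the nematode Caenorhabditis elegans. By that rule 183 of the 346 nuclear snoRNA genes of the annotation were hosted, among 44762 nuclear genes that are not pseudogenes. They lay in 159 host genes, 23 of which held more than 1 member and 1 of which, nol-56, held 4. Of the 183 members, 150 lay wholly inside 1 intron of a host transcript. The other 163 snoRNA genes served for comparison: 124 lay between coding genes, 33 inside a coding gene of the other strand, and 6 overlapped a coding gene in part.

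The data came from chromatin immunoprecipitation sequencing (ChIP-seq), in which DNA attached to a tagged protein is pulled down and sequenced. There was 1 group of 2 biological replicates, both of whole second-stage (L2) larvae of mixed sex. The strain, OP86, has 2 features in both replicates: the allele unc-119(ed3) and wgIs86, a transgene for PEB-1 fused to eGFP, a green fluorescent protein. The labels do not state the promoter of the transgene, and no group without it was analysed here. PEB-1 binds DNA through a FLYWCH zinc finger and was first studied at an enhancer of the pharyngeal myosin gene myo-2.

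SnoRNAs guide chemical changes of other RNAs, mainly ribosomal RNA, in the nucleolus. Those with C and D boxes guide ribose methylation, and those with H and ACA boxes guide the conversion of uridine to pseudouridine. In animals many snoRNAs are cut from the introns of a host transcript, so that host and snoRNA share a promoter, while others are transcribed from promoters of their own.

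Peaks were ranked by the signal of the deposited lists within each list, and the best-ranked peak was taken whose summit lay from 1000 bp upstream to 200 bp downstream of the snoRNA start (the start window). The thresholded list held 160 peaks, with signals from 35.4 to 202. The pooled, replicate 1 and replicate 2 lists held 30000 peaks each and hold background by design, so a peak in them was not read as binding, and ranks in the first 1000 were counted separately. The lowest signal within the first 1000 was 22.5 in the pooled list, 15.1 in replicate 1 and 12.2 in replicate 2. Read depth is unknown. The labels and files do not state the scale of the signal, so signals were not compared between lists.

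The 6 hosted snoRNA genes with a thresholded peak are shown first, as the members with the highest-ranked peaks. Their annotated genes, in ce11 (WBcel235) and read 5′ to 3′ on the strand of the gene, follow. Capitals mark a C box (TGATGA within the first 20 bases) where a D box (CTGA within the last 20) is also present, that D box, or, failing both together, an ACA within the last 6 bases. F54C9.12 lies at chrII:8560691-8560772 on the minus strand. C06A1.9 lies at chrII:10562952-10563064 on the minus strand. smy-2 lies at chrIV:9511395-9511466 on the minus strand. ZK994.7 lies at chrV:8500579-8500645 on the plus strand. C51F7.4 lies at chrV:12303599-12303693 on the plus strand. C51F7.3 lies at chrV:12303708-12303783 on the plus strand.
F54C9.12: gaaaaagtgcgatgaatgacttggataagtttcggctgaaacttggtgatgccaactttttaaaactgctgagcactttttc
C06A1.9: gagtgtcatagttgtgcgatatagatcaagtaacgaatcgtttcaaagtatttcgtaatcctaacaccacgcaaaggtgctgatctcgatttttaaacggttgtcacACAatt
smy-2: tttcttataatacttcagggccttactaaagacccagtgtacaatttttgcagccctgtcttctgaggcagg
ZK994.7: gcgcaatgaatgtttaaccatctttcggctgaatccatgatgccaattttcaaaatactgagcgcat
C51F7.4: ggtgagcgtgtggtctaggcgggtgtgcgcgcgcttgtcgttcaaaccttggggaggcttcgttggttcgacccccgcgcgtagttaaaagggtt
C51F7.3: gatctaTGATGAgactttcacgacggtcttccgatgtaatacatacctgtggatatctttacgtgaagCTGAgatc

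Only C51F7.3 held both boxes of the C/D pattern in these strict letters, and C06A1.9 held the ACA pattern. The gene smy-2 is annotated as a snoRNA and carries the name of the SmY RNAs, small nematode RNAs known from work on trans-splicing, in which a leader is spliced onto messenger RNAs.

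A thresholded summit lay in the start window of 6 of 183 hosted snoRNA genes, or 3.28% (exact 95% interval 1.21 to 7.0%, Clopper-Pearson), from 5 peaks. The same held for 0.413% of all genes that are not pseudogenes, and for 0.612% once the numerous piRNA genes were left out. Among the other snoRNA genes it held for 4 of 163, or 2.45% (0.673 to 6.16%). The interval of the hosted genes lay above both background shares and overlapped that of the other snoRNA genes. The count rested mainly on replicate 1: with the 160 highest peaks of replicate 2 alone, 2 hosted members were left (1.09%, 0.133 to 3.89%). That interval includes both background shares, but these are of the pooled thresholded list. The share of all genes for the 160 highest peaks of replicate 2 is not given, so the excess in replicate 2 at this depth cannot be judged. These intervals cover counting error over genes only, and members that share a peak or a host are not independent.

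The excess over all genes was also present further down the ranking. In the pooled list 21 of 183 hosted members (11.5%, 7.25 to 17.0%) had a best peak in the first 1000, from 19 peaks, against 1.9% of all genes and 2.59% without piRNA genes. The other snoRNA genes reached 17 of 163 (10.4%, 6.19 to 16.2%), so hosting did not separate the groups at this precision. In replicate 1 alone the counts were 22 hosted members (7.69 to 17.6%) and 20 other snoRNA genes (7.66 to 18.3%), against 1.99% of all genes. In replicate 2 alone they were 10 (5.46%) and 8 (4.91%), against 1.4%. A rank in the first 1000 of both replicates was found for 4 hosted members (2.19%) and 6 other snoRNA genes (3.68%), against 0.393% of all genes. Without piRNA genes the background shares were 2.87% in replicate 1, 1.61% in replicate 2 and 0.541% (0.460 to 0.631%) in both. This last interval overlaps that of the hosted members, which starts at 0.599%.

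**Figure D1:**
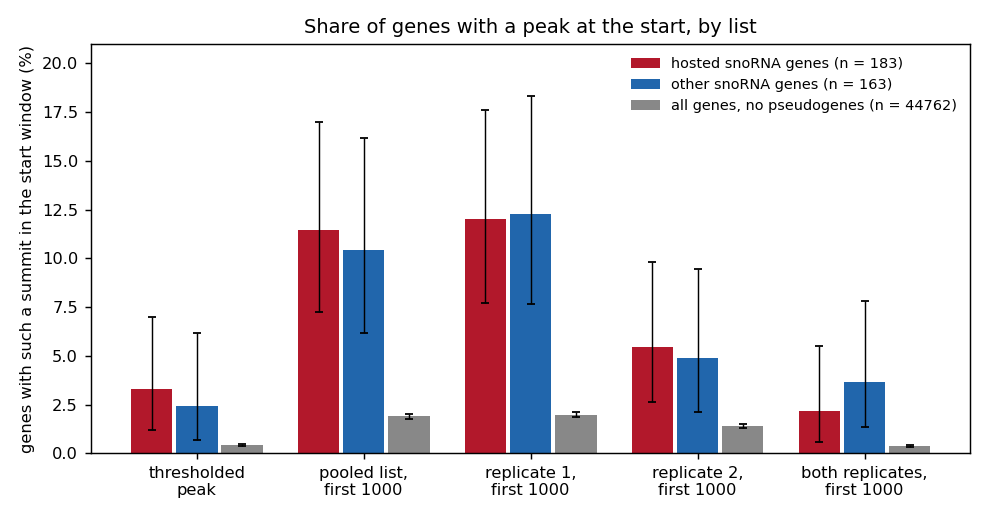
Share of hosted snoRNA genes (183), other snoRNA genes (163) and all genes that are not pseudogenes (44762) with a summit in the start window, for 5 rules on the horizontal axis. Bars start at 0 and error bars are exact 95% binomial intervals. In every rule the intervals of the 2 snoRNA groups overlap and both lie above that of all genes, most narrowly for hosted members in both replicates, where the interval starts at 0.599%. All genes without piRNA genes are not drawn, and in both replicates their interval (up to 0.631%) overlaps that of the hosted members.

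A peak of any rank was less telling. In the pooled list 87 of 183 hosted members (47.5%) and 85 of 163 other snoRNA genes (52.1%) had one, against 33.3% of all genes and 35.9% without piRNA genes. The remaining 96 hosted members had no pooled peak, and 61 had none in any of the 3 relaxed lists. Over members with a peak the median pooled rank was 7548, with 8416 for the other snoRNA genes and 13641.5 for all genes. In single replicates the order of the snoRNA groups was the reverse. The medians in replicate 1 were 6573 for hosted members, 4546 for the other snoRNA genes and 13467 for all genes. In replicate 2 they were 12653, 8471.5 and 14198.

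Other small genes of the same position were counted in the same way. Within protein-coding genes of the same strand, a pooled peak in the first 1000 was found for 40 of 1109 ncRNA genes (3.61%), 6 of 74 miRNA genes (8.11%), 5 of 167 tRNA genes (2.99%) and 9 of 2872 piRNA genes (0.313%). In the pooled list the interval of the hosted snoRNA genes lay above those of the ncRNA, tRNA and piRNA genes, of which that of the tRNA genes came nearest (up to 6.85%), and it overlapped that of the miRNA genes (3.03 to 16.8%). In single replicates the intervals were less apart. In replicate 1 that of the tRNA genes (13 of 167, 4.21 to 12.9%) overlapped that of the hosted snoRNA genes. In replicate 2 those of the tRNA genes (2 of 167, 0.145 to 4.26%) and of the ncRNA genes (20 of 1109, 1.105 to 2.77%) overlapped that of the hosted snoRNA genes (2.65 to 9.82%). A thresholded peak was found for 5 of 74 miRNA genes (6.76%, 2.23 to 15.1%) and 1 of 167 tRNA genes (0.0152 to 3.29%). Both intervals overlapped that of the hosted snoRNA genes (1.21 to 7.0%), while those of the ncRNA genes (up to 1.05%) and piRNA genes (up to 0.251%) lay below it.

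The best peak lay at a host start for some members and away from it for others. Of the 87 with a pooled peak, 27 had their summit at a host TSS, that is from 1000 bp upstream to 200 bp downstream of the start of a host transcript. This share depends on the window: it was 8 of 50 with both start windows cut to 500 bp upstream and 100 bp downstream, and 60 of 127 with 2000 and 500 bp. In the first 1000 it was 7 of 21, and among thresholded peaks 3 of 6. The plot of distance and rank shows the 2 kinds of summit.

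**Figure D2:**
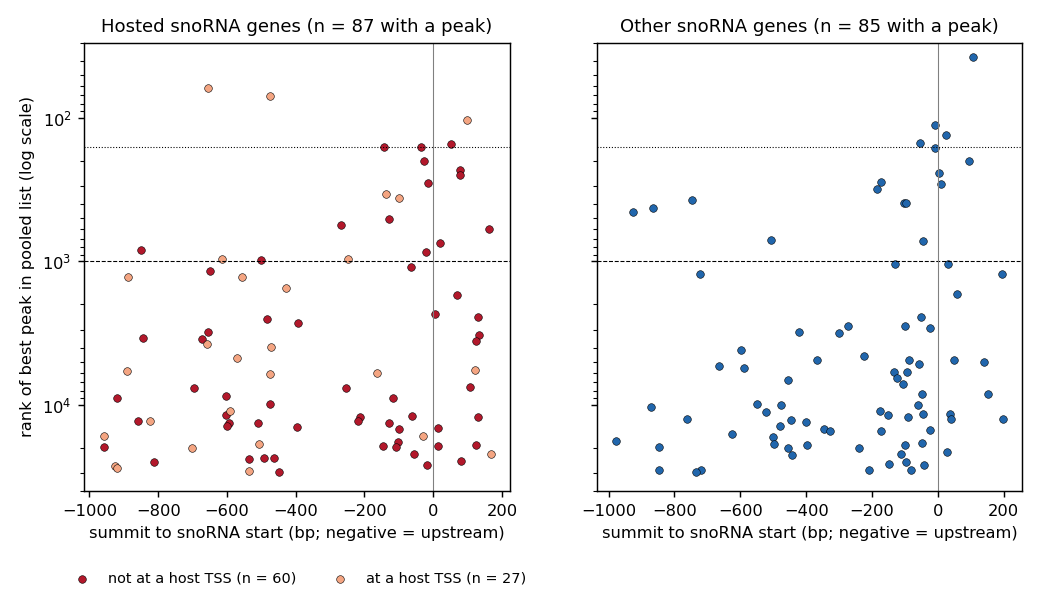
Distance from the snoRNA start to the summit of its best pooled peak (bp, negative upstream) against the rank of that peak (log scale, best at the top), for 87 hosted and 85 other snoRNA genes. The dotted line is rank 160 and the dashed line rank 1000; of the 14 hosted members above the dashed line that are not at a host TSS, 11 lie within 200 bp of the snoRNA start.

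Peaks at host starts came first in rank. The best-ranked hosted member was F54C9.12, in iff-2, which encodes the translation factor eIF5A. Its peak ranked 62 in the pooled list (signal 46.4), 77 in replicate 1 (32.7) and 1821 in replicate 2 (11.2). The summit lay 656 bp upstream of the snoRNA and 61 bp upstream of an iff-2 transcript start, and was also in the start window of the coding gene F54C9.14. C06A1.9, in cdc-48.1, which encodes an AAA ATPase that extracts ubiquitinated proteins, had a peak at rank 71 (44.8), at 55 in replicate 1 (38.1) and at 4965 in replicate 2 (9.32). Its summit lay 476 bp upstream of the snoRNA and 133 bp upstream of the host start.

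The smy-2 peak was near both starts. It ranked 104 in the pooled list (40.4), 342 in replicate 1 (20.4) and 993 in replicate 2 (12.2), the only thresholded peak of a hosted member in the first 1000 of both replicates. The summit lay 99 bp downstream of the smy-2 start, just beyond the 72-base gene, and 157 bp upstream of a start of its host C33A12.3. The coding gene C33A12.4 also has the summit in its start window.

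The summit windows of the F54C9.12 and ZK994.7 peaks are shown as an example at a host start and an example inside the snoRNA gene. Each spans 100 bases either side of the summit, on the strand of the snoRNA, and capitals mark GAGAGA or a recalled PEB-1 core (TGCC with A, G or T before it and A or G after it, 6 spellings), on either strand. The first lies at chrII:8561328-8561528 on the minus strand and the second at chrV:8500530-8500730 on the plus strand.
F54C9.12 window: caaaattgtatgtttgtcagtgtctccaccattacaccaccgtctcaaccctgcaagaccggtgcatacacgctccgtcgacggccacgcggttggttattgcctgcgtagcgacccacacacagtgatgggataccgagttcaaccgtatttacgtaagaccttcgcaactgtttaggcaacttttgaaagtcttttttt
ZK994.7 window: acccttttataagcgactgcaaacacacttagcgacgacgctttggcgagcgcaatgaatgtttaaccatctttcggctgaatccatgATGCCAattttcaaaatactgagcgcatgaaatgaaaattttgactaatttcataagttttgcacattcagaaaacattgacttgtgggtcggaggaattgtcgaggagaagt

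The F54C9.12 window held neither motif and had 48.8% G and C. The ZK994.7 window held the core once, inside the snoRNA gene itself.

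Of the thresholded peaks away from host starts, that of ZK994.7, in pxn-1, which encodes a peroxidasin of the extracellular matrix, lay inside the snoRNA gene. Its summit was 51 bp downstream of the start and 5741 bp from the nearest pxn-1 start. The peak ranked 152 in the pooled list (36.0) and 115 in replicate 1 (28.7), and no replicate 2 peak overlapped it. The window is shared with the tRNA gene ZK994.t2. C51F7.4 and C51F7.3 lie side by side in frm-7, a gene for a protein with a FERM domain, and shared the peak at rank 160, the last of the thresholded list (35.4). Its summit lay 35 bp upstream of C51F7.4 and 144 bp upstream of C51F7.3, 1080 bp from the host start, and the peak ranked 111 in replicate 1 (28.8) and 13359 in replicate 2 (7.21).

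Just outside the threshold, 4 hosted members followed, all away from host starts. K11C4.6, in unc-70, which encodes beta-spectrin, ranked 199 in the pooled list (33.2), 440 in replicate 1 (19.0) and 459 in replicate 2 (13.5), with its summit 26 bp upstream. M106.6, in mix-1, which encodes a condensin subunit, ranked 233 (31.6), 3222 in replicate 1 (11.5) and 32 in replicate 2 (19.6), with its summit 77 bp downstream of the start. R166.7, in mnk-1, a kinase gene, ranked 252 (31.1), 390 in replicate 1 (19.7) and 10309 in replicate 2 (7.76), with its summit 78 bp inside the gene. F38E11.14, in cng-3, a cyclic nucleotide-gated channel gene, ranked 284 (30.2), 469 in replicate 1 (18.7) and 198 in replicate 2 (14.97), with its summit 15 bp upstream. K11C4.6 and F38E11.14 thus ranked in the first 500 of both replicates, whereas the M106.6 peak was in the first 1000 only in replicate 2 and the R166.7 peak only in replicate 1. The K11C4.6 summit was also in the start window of the ncRNA gene K11C4.7. That of F38E11.14 was also in those of the coding gene wrt-3 and the ncRNA gene F38E11.21. The M106.6 and R166.7 summits were in no start window of a further gene.

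**Figure D3:**
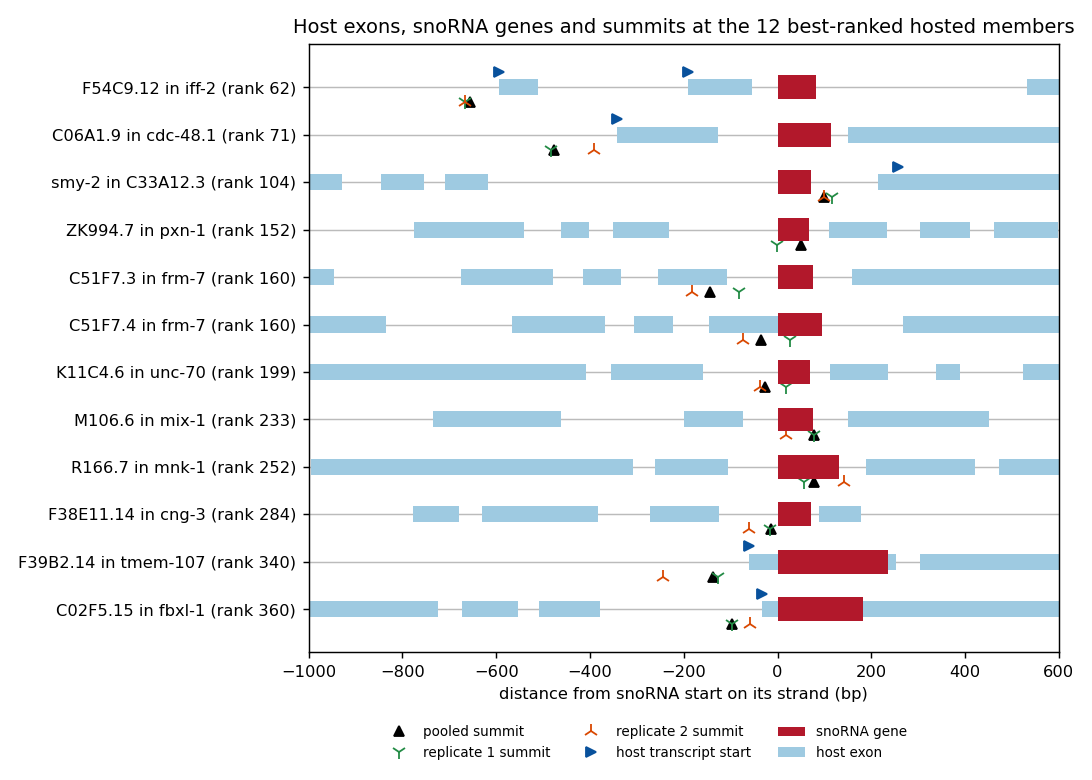
Map of the 12 best-ranked hosted members, aligned at the snoRNA start and read on its strand (horizontal axis in bp, to scale), with host exons, host transcript starts and the summits of the pooled peak and of the replicate peaks that overlap it. The summits of F54C9.12, C06A1.9, F39B2.14 and C02F5.15 lie upstream of a host start (by 61, 133, 76 and 65 bp), while those of ZK994.7, K11C4.6, M106.6, R166.7 and F38E11.14 lie within 78 bp of the snoRNA start with no host start nearby.

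The other hosted members of the first 1000 were of both kinds. At host starts were F39B2.14 (pooled rank 340), in tmem-107, which encodes a protein of the ciliary transition zone, and C02F5.15 (360), inside fbxl-1 and rfs-1. So was the pair F54E7.10 and F54E7.11 (both 958), which shared 1 peak, 168 bp upstream of a start of the ribosomal protein gene rps-12. The coding gene ska-3 had the annotated start nearest to that summit. The F39B2.14 summit was also in the start window of the coding gene rps-26. Of all 7 members of the first 1000 at host starts, 2 had a summit in no start window of a gene other than the member and its host. Away from host starts were T08B2.13 (511), in fars-1, a phenylalanyl-tRNA synthetase gene, C04A2.16 (558), in egl-27, F55A11.10 (599), C06A1.8 (741), the second member in cdc-48.1, Y38F2AR.14 (829), W04D2.7 (861), in the innexin gene inx-11, and C08D8.3 (978). The next hosted member outside the limit was Y43F8C.22 (1104).

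Away from host starts most summits of the first 1000 lay close to the snoRNA. Of the 14 such members in the first 1000, 11 had the summit within 200 bp of the snoRNA start, with a median distance of 77.5 bp. The snoRNA start was the nearest annotated start for 11 of the 14. In 6 of the 14 the summit lay in no start window of a gene other than the member and its host, and in the other 8 it could equally belong to a further gene. The same closeness held for 13 of 17 other snoRNA genes in the first 1000 (median 97 bp) and for 428 of 852 genes of all kinds (50.2%). At host starts it held for 3 of 7 members, with a median of 248 bp. Nearness to the snoRNA start was thus seen in both snoRNA groups.

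The replicates ranked the same members differently. Of the 21 hosted members in the first 1000, the replicate 1 peak that overlaps the pooled peak was in the first 1000 for 17, and the replicate 2 peak for 6. The median rank of these peaks was 469 in replicate 1 (21 peaks) and 7825 in replicate 2 (20 peaks). Both were in the first 1000 for 3 members: smy-2, K11C4.6 and F38E11.14. R166.7 was also counted in both by its window, but its best replicate 2 summit there (rank 422) lay 1008 bp from the pooled one. The overlapping peak ranked better in replicate 1 for 17 of the 21. At host starts the overlapping peak was in the first 1000 for 7 of 7 in replicate 1 and 1 of 7 in replicate 2.

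**Figure D4:**
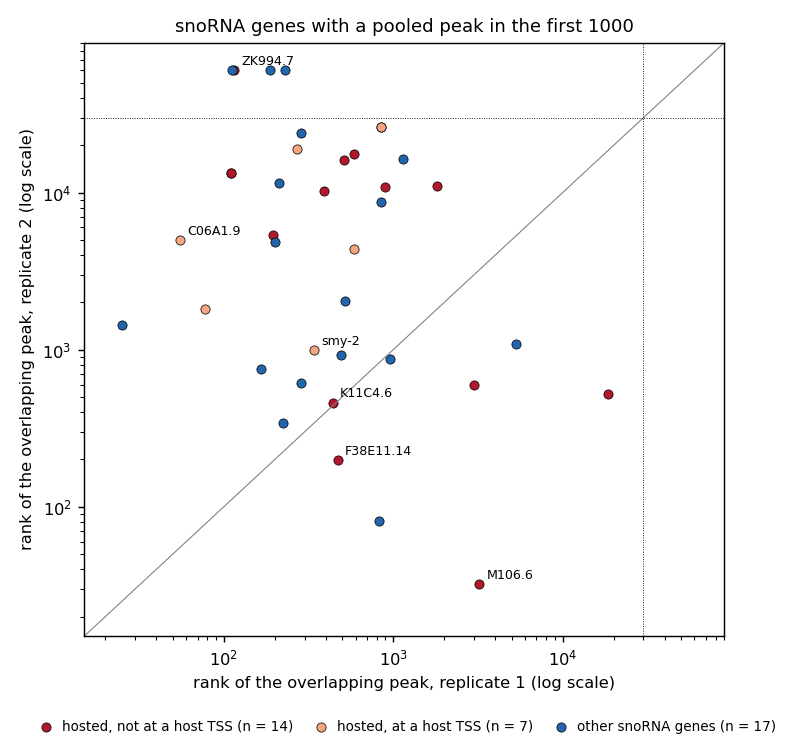
Ranks in replicate 1 and replicate 2 (log scales) of the peak overlapping the pooled peak, for 21 hosted and 17 other snoRNA genes with a pooled rank in the first 1000; the line marks equal rank and points beyond the dotted lines have no overlapping peak. Most points lie above the line (better ranked in replicate 1), K11C4.6 only just; 4 hosted members (M106.6, F38E11.14, F55A11.10 and Y38F2AR.14) and 3 other snoRNA genes lie below it.

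Of the 5 best-ranked members of replicate 2, 2 were not in the first 1000 of the pooled list. F48A11.7, in ubxn-3, ranked 80 in replicate 2 and 1530 in the pooled list, with no replicate 1 peak in its window. Y43F8C.22 ranked 264 in replicate 2, 6040 in replicate 1 and 1104 in the pooled list. The other 3 were M106.6 (32), F38E11.14 (198) and R166.7 (422). In replicate 1 the 5 best were C06A1.9 (55), F54C9.12 (77), C51F7.3 and C51F7.4 (111 each, 1 peak) and ZK994.7 (115).

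Among snoRNA genes that are not hosted, 4 had a thresholded peak. F07A11.15 ranked 38 in the pooled list, 25 in replicate 1 and 1444 in replicate 2, and Y55F3BR.9 ranked 149, 287 and 617, both inside a coding gene of the other strand. R07G3.16 ranked 113, 223 and 339, and T08B6.64 ranked 132, 165 and 757, both between coding genes. Apart from F07A11.15, all ranked in the first 1000 of both replicates, which held for 1 of the 6 hosted members with a thresholded peak, smy-2. With 4 and 6 genes no difference was tested.

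Host genes had peaks at their own starts more often than coding genes at large. Every annotated transcript start was searched, so genes with more transcripts had more windows, which was not adjusted for. The count was made in the thresholded and pooled lists only, not in single replicates. A thresholded summit lay at a transcript start of 7 of 159 hosts (4.40%, 1.79 to 8.86%), against 0.401% of coding genes, and a pooled peak in the first 1000 at 14 of 159 (8.81%, 4.90 to 14.3%), against 1.9%. The 7 were lin-14 (rank 30), a timing gene, alg-5 (49), an Argonaute gene, iff-2 (62), mnk-1 (67), cdc-48.1 (71), zip-2 (80), a bZIP factor gene, and C33A12.3 (104). Only the iff-2, cdc-48.1 and C33A12.3 peaks lay in the start window of a hosted snoRNA gene. In mnk-1 the host start (67) and the snoRNA R166.7 (252) thus had separate peaks, and the R166.7 summit lay 3672 bp from the nearest mnk-1 start.

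The motifs at the members' peaks were compared with those of all peaks of the same rank. Within 100 bp of the summit, GAGAGA on either strand was present at 2 of 19 hosted peaks of the first 1000 (10.5%, 1.301 to 33.1%), against 37.4% of all peaks in the first 1000, and at 5 of 17 peaks of the other snoRNA genes (29.4%). The core was present at 8 of 19 (42.1%), against 44.3%, and at 11 of 17 for the other snoRNA genes (64.7%). Over all 82 hosted best peaks, GAGAGA was at 10 (12.2%) and the core at 34 (41.5%), against 13.5% and 35.2% of all pooled peaks. Thresholded peaks held GAGAGA in 57.5% and the core in 65.0%. In the first 1000, GAGAGA at hosted members was thus below the share of all peaks of that rank, with an interval that ends below it, while the core was near its background.

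Reading the sequences at the members' starts showed letters like the A and B boxes of tRNA genes, the internal promoter elements bound by RNA polymerase III factors, just upstream of several members. The search that followed was therefore chosen after the sequences were seen, over 150 bp upstream to 50 bp downstream of the snoRNA start, on its strand. It used 4 spellings. The A letters were TGGC, AG and GG with any 2 bases between each. The B letters were GTTCGA, a medium form with a C after any 2 further bases, and a long form with a G before and CC after. The 7 members in the first 1000 with the A letters or GTTCGA are shown, with 75 bases before the snoRNA start and its first 25 bases, in ce11 and on the snoRNA strand, with capitals on the matched letters. C51F7.3 is shown at chrV:12303633-12303732 (plus). K11C4.6 is shown at chrV:6889001-6889100 (plus). M106.6 is shown at chrII:10840242-10840341 (plus). R166.7 is shown at chrII:10545305-10545404 (minus). F38E11.14 is shown at chrIV:9477675-9477774 (minus). F55A11.10 is shown at chrV:11782917-11783016 (plus). Y38F2AR.14 is shown at chrIV:2408611-2408710 (minus). An eighth such member, T08B2.13, is named only.
C51F7.3 leader: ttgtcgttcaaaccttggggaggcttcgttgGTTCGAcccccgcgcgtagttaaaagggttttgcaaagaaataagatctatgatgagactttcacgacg
K11C4.6 leader: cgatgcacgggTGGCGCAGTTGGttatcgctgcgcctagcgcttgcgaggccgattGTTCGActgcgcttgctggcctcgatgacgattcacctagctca
M106.6 leader: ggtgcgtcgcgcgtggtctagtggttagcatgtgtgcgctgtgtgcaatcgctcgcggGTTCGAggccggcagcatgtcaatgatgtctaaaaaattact
R166.7 leader: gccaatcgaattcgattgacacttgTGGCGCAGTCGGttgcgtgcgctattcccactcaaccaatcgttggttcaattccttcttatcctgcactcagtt
F38E11.14 leader: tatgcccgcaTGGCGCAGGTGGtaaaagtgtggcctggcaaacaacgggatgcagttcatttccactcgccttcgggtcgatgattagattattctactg
F55A11.10 leader: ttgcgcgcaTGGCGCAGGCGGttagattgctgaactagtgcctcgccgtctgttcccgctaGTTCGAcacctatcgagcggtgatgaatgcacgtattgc
Y38F2AR.14 leader: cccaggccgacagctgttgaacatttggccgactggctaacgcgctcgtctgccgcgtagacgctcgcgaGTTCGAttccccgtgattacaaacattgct

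In K11C4.6 and F55A11.10 both sets of letters were present, with the A letters 64 and 66 bp and GTTCGA 19 and 14 bp upstream of the start. Of the spellings searched, F38E11.14, T08B2.13 and R166.7 held the A letters alone, 65, 61 and 50 bp upstream. M106.6, Y38F2AR.14 and C51F7.3 held GTTCGA alone, 17, 5 and 44 bp upstream, in C51F7.3 within the neighbouring C51F7.4. Other spellings were not counted, so a member with only the A letters or only GTTCGA may hold a variant of the other box. The R166.7 leader above, for example, reads GGTTCAATTCC, and that of M106.6 reads TGGTCTAGTGG.

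Over all 183 hosted members, the 4 spellings were found in 8 (A letters, 4.37%), 16 (GTTCGA, 8.74%), 11 (medium form, 6.01%) and 4 (long form, 2.19%). Over the 163 other snoRNA genes they were found in 4 (2.45%), 14 (8.59%), 9 (5.52%) and 4 (2.45%), so the letters were present in both groups. Around the starts of protein-coding genes the shares were 0.0951%, 3.43%, 0.476% and 0.0501%. Within tRNA genes themselves they were 0.817%, 72.2%, 72.1% and 64.4%, so the A spelling used here misses most tRNA genes and GTTCGA misses some. On the opposite strand of the hosted members the 4 spellings were found in 2, 7, 1 and 0.

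The letters and the rank of the peak were set side by side as a description. The A letters or GTTCGA were present in 8 of the 21 hosted members of the first 1000, 10 of the 66 with a lower-ranked peak and 4 of the 96 without a pooled peak. On the opposite strand these counts were 2, 4 and 3. Around the starts of all genes without tRNA genes the share was 3.60%, so the members without a pooled peak (4.17%) were near it. All 8 members of the first 1000 with the letters were among the 14 away from host starts, and none among the 7 at host starts. Away means only outside the host start window. The F55A11.10 summit lay 287 bp from its host start and 163 bp from the snoRNA start. That of Y38F2AR.14 lay 346 bp from its host start and 850 bp from the snoRNA start, so it was not near the letters. The rest lay 1080 bp or more from a host start. In the other direction, 8 of the 22 members with the letters and 13 of the 161 without ranked in the first 1000. Among the other snoRNA genes, 1 of 17 in the first 1000 had the letters, 6 of 68 with a lower-ranked peak and 7 of 78 with none. Of the members with the letters, 36.4% ranked in the first 1000 (17.2 to 59.3%), and of the other snoRNA genes with them 1 of 14 (0.181 to 33.9%), intervals that overlap. The spellings were drawn from the same members whose ranks they are set against, so these counts carry no test. Of all 612 tRNA genes, 32 (5.23%) had a pooled peak in the first 1000 in their own start window. What part the letters have in the peaks was not tested.

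**Figure D5:**
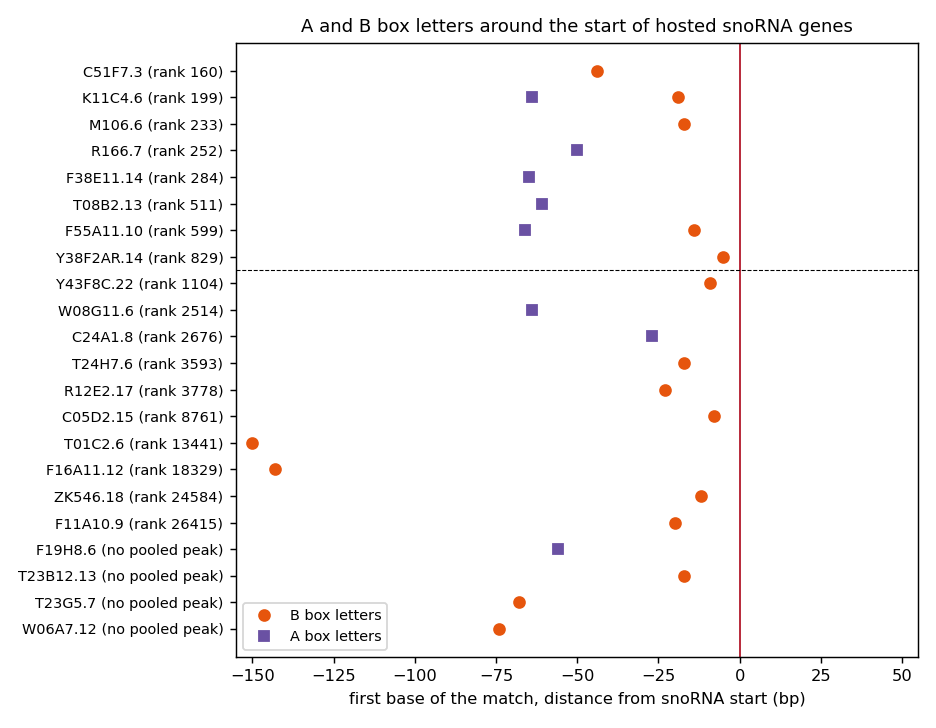
Position of the A box letters (squares) and of GTTCGA (circles, B box letters) relative to the snoRNA start for the 22 hosted members that hold either (horizontal axis in bp, first base of the match), in order of pooled rank; members above the dashed line rank in the first 1000. In the 8 members above the line the A letters start 50 to 66 bp and GTTCGA 5 to 44 bp upstream of the snoRNA.

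Genes for the proteins that bind and process snoRNAs were counted as a list. It held 23 genes, all matched: parts of the C/D and H/ACA particles, assembly and nucleolar factors, enzymes that free snoRNAs from introns, and factors of small nuclear RNA promoters. None had a thresholded peak and none a pooled peak in the first 1000, and 4 had a pooled peak of any rank (17.4%, 4.95 to 38.8%). That interval includes the 33.3% of all genes, and at 23 genes the counts of 0 are near the background shares too, so the list was not set apart. These were fib-1 (15938), the methyltransferase of the C/D particle, parn-1 (8630), a trimming nuclease, and the promoter factor genes snpc-1.3 (9633) and snpc-3.4 (24304).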

How the data were processed

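Peak lists of PEB-1 ChIP-seq in 2 biological replicates, grouped from the labels, were analysed in ce11 coordinates. Per the accompanying file listing, the relaxed lists were called for each replicate and for the pool with a control file, and the thresholded list was derived from them; no label or file used states the aligner, the peak caller, their versions or the threshold. The 160 thresholded peaks were checked to be the 160 highest of the pooled list. The signal of each peak is the value the authors deposited, on an unstated scale, and was used only to rank within a list. The score in the last column but 1, as deposited by the authors, only broke ties.

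Genes came from Ensembl release 115 (WBcel235), and sequences from the RefSeq genome of the same assembly; all peaks of the lists fell within its chromosomes. Analysis used Python 3.11.15, numpy 2.4.6, scipy 1.17.1 and matplotlib 3.10.9. Window and host assignment were tested on simulated data. With 1 group no test over samples was possible, so shares carry exact 95% binomial intervals that cover counting error over genes only. Named were members with a thresholded peak, then those in the first 1000 of the pooled list by rank (at most 20, to which the last within the limit was added), the 5 best of each replicate, and thresholded other snoRNA genes. Members, lists and motifs were chosen with earlier results of these data known. Alternatives varied the window, the overlap, the host rule, the rank limit, the list and the replicate. Lists in ce10 coordinates were not used here.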

Additional observations from a re-analysis of the deposited data

How the results depend on the processing

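Both snoRNA groups rested mainly on replicate 1. Using 1 replicate in place of both, hosted members with a thresholded-size peak numbered 2 to 5 (6 in the report) and other snoRNA genes 1 to 3 (4), hosted members in the first 1000 numbered 10 to 22 (21) and other snoRNA genes 8 to 20 (17), and the hosted median rank was 6573 to 12653 (7548); the low counts came without replicate 1. With only the 80 highest thresholded peaks, 2 hosted and 1 other snoRNA gene were left. A rank limit of 500 gave 12 of 183 hosted members and 15 of 163 other snoRNA genes, so the hosted share was then the lower. The share of all genes at that limit is not given. With a host on either strand, 2 other snoRNA genes had a thresholded peak. A window of 500 bp upstream to 100 bp downstream gave 50 hosted members with a pooled peak, 8 of them at a host TSS, and one of 2000 to 500 bp gave 60 of 127 at a host TSS. Of the 82 hosted best peaks, GAGAGA was at 5 and the core at 19 within 50 bp of the summit, and GAGAGA was at 25 within 200 bp. Shares of all pooled peaks are given only for 100 bp, so these counts have no background beside them. The search for A or B box letters, an addition chosen after seeing the data, found 22 members, and 20 or 28 when it began 100 or 300 bp upstream. The cause of these shifts was not tested beyond what each setting itself adds or removes. No paired analysis was possible because there was 1 group. Depth is unknown, so absence of a peak says only that none was listed.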

Other observations

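The median intron was 294 bp (167 to 2756) for 19 members in the first 1000 and 395 bp (82 to 17822) for 131 other members, a difference that was not tested. In the strict letters used, 6 hosted members had the C/D pattern, 58 the ACA pattern (31.7%, against 12.3% of the other snoRNA genes) and 119 neither. Of the 21 in the first 1000, 2 had the C/D pattern, 7 the ACA pattern and 12 neither. Of the 21 members in ribosomal protein genes, 2 ranked in the first 1000 (9.52%, 1.17 to 30.4%), near the 11.7% of members in other hosts. Of the 10 hosted members on chromosome X none did, which allows a share of up to 30% and so does not set them apart from the 11.5% of all hosted members.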
